A study of Mus musculus with 2 samples.

Results

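The Toll-like receptors are the family of 10 genes described here, taken as the rows of the deposited expression table whose gene symbol is Tlr1 to Tlr9 or Tlr13, 10 of 50608 rows in all. All 10 were found. They were split by where the receptor protein is known to sense its ligand, with Tlr1, Tlr2, Tlr4, Tlr5 and Tlr6 at the cell surface and Tlr3, Tlr7, Tlr8, Tlr9 and Tlr13 in endosomes. RNA was sequenced from peritoneal macrophages, the phagocytes of the abdominal cavity, in 2 libraries. The GW3965 library came from cells treated with the compound GW3965, which activates the liver X receptors (LXRs), nuclear receptors that sense oxidised cholesterol. The DMSO library came from cells given the solvent. Both are labelled as C57BL6J mice, male and female cells pooled, with E15.5 as the developmental stage. The sources used here give no dose, no length of treatment and no microbial stimulus. The column read as GW3965 shares its opening letters, and not its last ones, with the GW3965 sample's description, and each statement on GW3965 rests on that match.

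Toll-like receptors recognise molecules of microbes and of damaged cells. A ligand brings receptors together as pairs, their cytoplasmic domains gather the adaptors MyD88 or TRIF (genes Myd88 and Ticam1), and kinases pass the signal on to NF-kappaB and interferon regulatory factors. Surface receptors mostly detect bacterial lipids and proteins. Endosomal receptors detect nucleic acids and depend on the chaperone Unc93b1 to leave the endoplasmic reticulum. In macrophages this pathway sets off cytokine production, and LXR agonists are known for dampening that output after stimulation.

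Values are FPKM, fragments per kilobase of gene scaled to depth, as deposited, and FPKM levels are therefore comparable between genes per length. The depth recovered from the steps of the values was 75287123 reads for GW3965 and 101866067 for DMSO. Each treatment has 1 library, so no difference below has a replicate check, no test of the treatment was possible, and no p-value is given. Ratios carry 95% intervals from recovered reads, which cover counting error only. The 11889 rows with a mean of at least 1 FPKM are called measured here. Their median log2 of (GW3965 FPKM + 1)/(DMSO FPKM + 1) was 0.24, a 1.18-fold shift shared by most genes on that scale. The added 1 FPKM shrinks ratios, so 1.18 is not the shift of the plain FPKM ratios given below. The centred log2 ratio of a gene is its own log2 ratio minus that median, and a gene was called at 1.5-fold on the centred scale. LXR target genes stood far above this shift, with Abca1, the cholesterol exporter, at 261 FPKM in GW3965 and 19.9 FPKM in DMSO and Abcg1 at 153 FPKM in GW3965 and 45.3 FPKM in DMSO.

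Tlr1 and Tlr6 are close paralogues next to each other on chromosome 5, with 18467 bases between them, and their coding sequences share long stretches. On build GRCm38 the longest identical stretch covers 229 bases, at chr5:64925537-64925765 in Tlr1 and chr5:64953828-64954056 in Tlr6, both on the minus strand. It is shown because reads inside it cannot be given to either gene by their sequence:
Tlr1 and Tlr6 shared: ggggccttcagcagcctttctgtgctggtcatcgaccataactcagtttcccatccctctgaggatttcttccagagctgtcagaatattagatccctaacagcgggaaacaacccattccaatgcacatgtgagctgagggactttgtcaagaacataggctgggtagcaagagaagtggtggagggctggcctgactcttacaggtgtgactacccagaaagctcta
Of the 2286 windows of 100 bases in the Tlr1 coding sequence, 259 (11.3%) also occur unaltered in Tlr6, and none occurs in Tlr2. The sources used here do not give how reads with several matches were counted, so the split of reads between Tlr1 and Tlr6 is uncertain.

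Tlr13, a receptor for bacterial ribosomal RNA, was the most abundant member in both libraries, and Tlr5, the flagellin receptor, was the least abundant. In GW3965 the order of FPKM levels was Tlr13, Tlr4, Tlr7, Tlr8, Tlr6, Tlr1, Tlr9, Tlr2, Tlr3 and Tlr5. In DMSO, Tlr7 stood above Tlr4 and Tlr2 above Tlr9, and the rest of the order was the same. The counting intervals of neighbours in that order were separate except for Tlr9 and Tlr2 in GW3965, at 2.496 FPKM (2.305 to 2.698) and 2.389 FPKM (2.183 to 2.609). Tlr13 alone made up 41.1% of the family's summed FPKM in GW3965 and 46.9% in DMSO. The endosomal receptors as a set held 71.1% of that sum in GW3965 and 76.0% in DMSO.

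**Figure D1:**
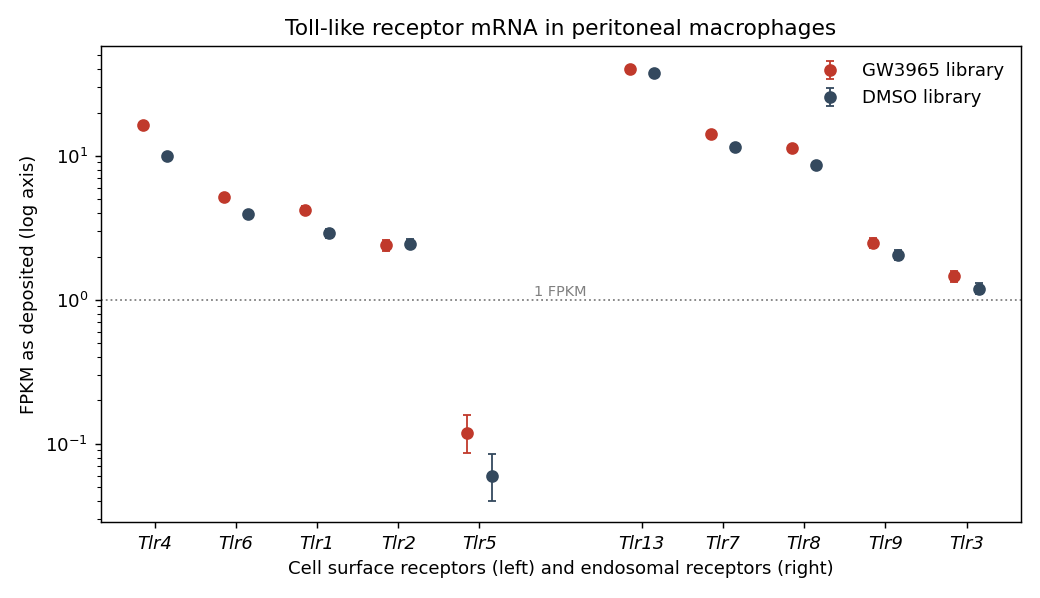
FPKM as deposited (log axis) of the 10 receptors in the GW3965 library (red) and the DMSO library (dark blue), surface receptors on the left and endosomal ones on the right; points are single libraries and bars are 95% counting intervals of the recovered reads. Tlr13 lies near 40.3 FPKM in GW3965 and 37.8 FPKM in DMSO, the widest gap among measured members is that of Tlr4, and Tlr5 lies far below the dotted line at 1 FPKM.

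Of the 9 measured members, 0 were called higher and 0 lower on the centred scale, where 1.38% of all measured rows were called higher and 0.336% lower. On the values as deposited, 1 member, Tlr4, was past 1.5-fold higher and 0 were lower, against 3.46% and 0.0757% of all measured rows. The median centred log2 ratio of the 9 measured members was 0.02, where the median of all measured rows is 0 by construction. Their centred values ran from -0.27 for Tlr2 to 0.42 for Tlr4, and the central 90% of all measured rows ran from -0.27 to 0.28. The family thus lay near the bulk of the table, with Tlr4 above that central range and Tlr2 at its lower edge.

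Tlr4, the receptor that responds to bacterial lipopolysaccharide, lies at chr4:66827584-66930284 on the plus strand of GRCm38. It had 16.5 FPKM (an estimated 6818 reads) in GW3965 and 10.02 FPKM (5620 reads) in DMSO. The GW3965 library was thus the high one, at a ratio of 1.64 (1.58 to 1.70). On the centred scale Tlr4 stood at 0.42, below the 1.5-fold limit of 0.58, and 2.41% of measured rows stood higher. Its share of the family's summed FPKM was 16.8% in GW3965 and 12.4% in DMSO, and with it Tlr4 passed Tlr7 in the order of levels.

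Tlr2 is the shared partner of Tlr1 and Tlr6, with which it recognises bacterial lipoproteins with different numbers of acyl chains. Tlr2 (chr3:83836272-83841767, minus strand) had 2.39 FPKM (495 reads) in GW3965 and 2.46 FPKM (689 reads) in DMSO, a ratio of 0.97 (0.86 to 1.09). As deposited the 2 libraries were within counting error of each other for Tlr2, but relative to the shift of most genes its centred log2 ratio was -0.27, with 4.90% of measured rows below it. That sign depends on the scaling, since the log2 ratio of Tlr2 was 0.16 when both libraries were scaled to the same sum. Tlr1 (chr5:64924679-64933563, minus strand) had 4.19 FPKM (929 reads) in GW3965 and 2.89 FPKM (866 reads) in DMSO, a ratio of 1.45 (1.32 to 1.59), or 0.17 on the centred log2 scale. Tlr6 (chr5:64952031-64960097, minus strand) had 5.20 FPKM (1810 reads) in GW3965 and 3.94 FPKM (1854 reads) in DMSO, a ratio of 1.32 (1.24 to 1.41), or 0.09 on the centred log2 scale. Both partners were thus higher in GW3965 as deposited, and both lay inside the central 90% of all measured rows.

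Ratios between members of the same library do not depend on how the libraries are scaled. The level of Tlr1 relative to Tlr2 was 1.76 in GW3965 and 1.18 in DMSO, which is 1.49 times higher in GW3965 (1.29 to 1.73). Tlr6 relative to Tlr2 was 2.18 in GW3965 and 1.60 in DMSO, 1.36 times higher (1.19 to 1.55). Between the partners themselves, Tlr1 relative to Tlr6 was 0.81 in GW3965 and 0.73 in DMSO, and the interval of that change (0.98 to 1.23) includes no difference. On these values Tlr2 was the scarcer partner in both libraries, and more so in GW3965. In DMSO the margin to Tlr1 was small, at 2.278 to 2.648 FPKM for Tlr2 and 2.700 to 3.089 FPKM for Tlr1. The uncertain split of reads between Tlr1 and Tlr6 is not covered by these intervals. In these bulk samples, fewer cells of a type and less RNA per cell cannot be told apart.

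The upstream windows of Tlr1 and Tlr6 from RefSeq (build GRCm38.p6, 250 bases before an annotated start, minus strand) are shown for these neighbours. Each gene has a second annotated window, at chr5:64932700-64932949 for Tlr1 and chr5:64960049-64960298 for Tlr6, that holds neither of the motifs marked here and is not shown. The windows shown were thus picked for holding them, and that of Tlr6 lies within the M21 span of the gene. Capitals mark AGGAAGT, a motif of the ETS family to which the macrophage factor PU.1 belongs, and GAAA repeated with 2 bases between, the core of interferon response elements, on either strand. The first window is chr5:64933559-64933808 and the second chr5:64959167-64959416:
Tlr1: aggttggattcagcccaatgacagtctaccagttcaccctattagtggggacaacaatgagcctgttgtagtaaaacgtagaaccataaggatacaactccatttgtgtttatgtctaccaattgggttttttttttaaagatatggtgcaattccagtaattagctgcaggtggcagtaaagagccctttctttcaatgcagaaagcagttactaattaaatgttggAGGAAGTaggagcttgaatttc
Tlr6: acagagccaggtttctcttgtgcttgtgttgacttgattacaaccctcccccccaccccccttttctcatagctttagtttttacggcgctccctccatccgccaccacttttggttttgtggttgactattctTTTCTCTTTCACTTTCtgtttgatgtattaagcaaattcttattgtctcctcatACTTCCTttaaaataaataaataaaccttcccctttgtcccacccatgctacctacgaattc
In Tlr6 the interferon motif occurs at 2 overlapping places. Windows were matched for 8 of the 10 receptors, 10 windows in all, and none for Tlr4 and Tlr7. AGGAAGT occurred in 2 of these 10 windows and in 7.69% of all 32851 windows, and the GAAA repeat in 1 of them and in 2.98% of all. TATAAA, the TATA box, occurred in 2 windows (1 of Tlr6 and that of Tlr8) and in 12.4% of all. AGGTCA, the half-site of nuclear receptors such as LXR, occurred in the windows of Tlr2, Tlr5 and Tlr9 and in 14.0% of all. Its direct repeat with 4 bases between, a form bound by LXR, occurred in 0 of the receptor windows and in 0.0152% of all. These matches only describe the letters of the windows.

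The endosomal receptors were closer together than the surface receptors. Tlr13 (chrX:106143204-106160493, plus strand) had 40.3 FPKM (11933 reads) in GW3965 and 37.8 FPKM (15146 reads) in DMSO, a ratio of 1.07 (1.04 to 1.09). Its centred log2 ratio was -0.15, with 15.9% of measured rows below it. The most abundant receptor was thus slightly higher in GW3965 as deposited and slightly lower relative to most genes. Tlr7 (chrX:167304929-167330558, minus strand), a sensor of single-stranded RNA, had 14.1 FPKM (4649 reads) in GW3965 and 11.6 FPKM (5164 reads) in DMSO, a ratio of 1.22 (1.17 to 1.27), or 0.02 on the centred log2 scale. Tlr8 (chrX:167242696-167264329, minus strand), its neighbour 40599 bases away and also known as an RNA sensor, had 11.4 FPKM (3146 reads) in GW3965 and 8.64 FPKM (3226 reads) in DMSO, a ratio of 1.32 (1.26 to 1.39), or 0.12 on the centred log2 scale. Tlr7 relative to Tlr8 was 1.24 in GW3965 and 1.34 in DMSO, so that the excess of Tlr7 was smaller in GW3965, by a factor of 0.92 (0.87 to 0.98).

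Tlr9 and Tlr3 were the low members of the endosomal set. Tlr9 (chr9:106222598-106226883, plus strand), the receptor for unmethylated CpG DNA, had 2.50 FPKM (633 reads) in GW3965 and 2.05 FPKM (702 reads) in DMSO, a ratio of 1.22 (1.09 to 1.36), or -0.04 on the centred log2 scale. Tlr3 (chr8:45395665-45411080, minus strand), the receptor for double-stranded RNA, had 1.45 FPKM (478 reads) in GW3965 and 1.19 FPKM (531 reads) in DMSO, a ratio of 1.22 (1.07 to 1.38), or -0.08 on the centred log2 scale. Both sat near the median of all measured rows. With 0.1 FPKM added in place of 1, Tlr3, Tlr7 and Tlr9 stood at -0.04, -0.03 and -0.03. In GENCODE M21, 381 exon bases of Tlr3 overlap the antisense gene Gm45542, and no label states that strand was kept, so reads of that stretch cannot be told apart. Tlr9 relative to Tlr7 was 0.18 in both libraries, and Tlr3 relative to Tlr7 was 0.10 in both.

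Tlr7, Tlr8 and Tlr13 lie on the X chromosome, and the other members lie on autosomes. The 258 measured protein-coding rows of the X chromosome had a median centred log2 ratio of 0.05, and the 8421 on autosomes one of -0.01. The 3 X-linked receptors, at -0.15, 0.02 and 0.12, lay on both sides of these medians.

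Set against each other, the measured surface receptors had a median centred log2 ratio of 0.13 over 4 genes and the endosomal receptors one of -0.04 over 5 genes, a difference of 0.17 on the log2 scale. The ranges overlapped, since the surface set held both the highest and the lowest member, Tlr4 at 0.42 and Tlr2 at -0.27, while the endosomal set ran from -0.15 to 0.12. The summed FPKM of the 5 surface receptors was 28.4 in GW3965 and 19.4 in DMSO, a ratio of 1.46, and that of the endosomal receptors was 69.8 in GW3965 and 61.3 in DMSO, a ratio of 1.14. Tlr4 made up 6.43 FPKM of the difference between the surface sums. Without Tlr4 the surface sum was 11.9 FPKM in GW3965 and 9.34 FPKM in DMSO, a ratio of 1.27. Without Tlr13 the endosomal sum was 29.5 FPKM in GW3965 and 23.5 FPKM in DMSO, a ratio of 1.26. The 2 sums thus had nearly the same ratio once the leading member of each set was left out. These sums are as deposited and include the shift of most genes. A ratio above 1 is therefore not by itself a rise relative to other genes. The surface median without Tlr4, over 3 measured genes, stood 0.13 above the endosomal one. The mean centred log2 ratios were closer, at -0.005 for the surface receptors without Tlr4 and -0.03 for the endosomal receptors. Both of these comparisons kept Tlr13. Without Tlr13 as well, the endosomal median was -0.01, against 0.09 for the surface receptors without Tlr4. The endosomal mean was then 0.003, above the surface mean of -0.005, so the order of the means depended on Tlr13. Tlr4 relative to Tlr13, the leading member of each set, was 0.41 in GW3965 and 0.27 in DMSO, 1.54 times higher in GW3965 (1.48 to 1.61). Members are single genes and not replicates, so this contrast is a description without a test.

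**Figure D2:**
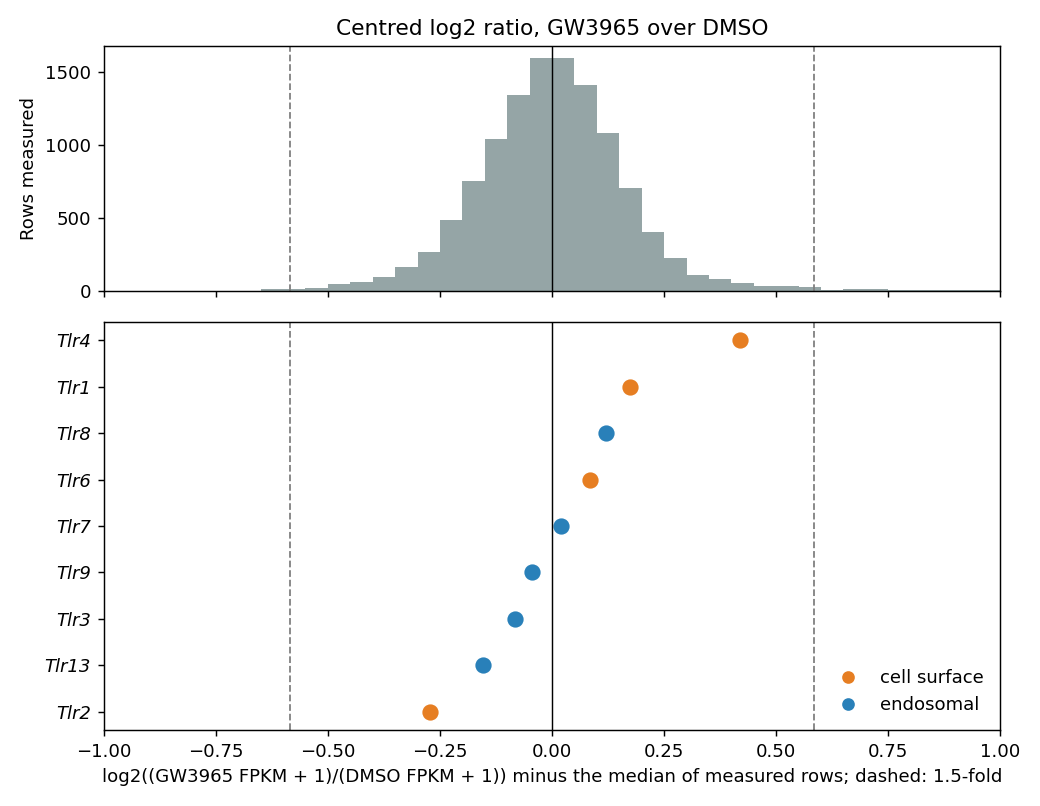
Top, number of measured rows by centred log2 ratio; bottom, the 9 measured receptors on the same axis, log2 of (GW3965 FPKM + 1)/(DMSO FPKM + 1) minus the median of measured rows, surface receptors in orange and endosomal ones in blue, with dashed lines at 1.5-fold. All 9 lie between the dashed lines, Tlr4 at 0.42 is farthest to the right, and Tlr2 at -0.27 is farthest to the left.

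Tlr5 (chr1:182954788-182976044, plus strand) had 0.119 FPKM (44 reads) in GW3965 and 0.060 FPKM (30 reads) in DMSO, a ratio of 1.98 (1.22 to 3.27), and was not measured by the limit of 1 FPKM. Genes of olfactory receptors, known to be mostly off away from sensory tissue, were also higher in GW3965 at this level. Over 1083 such rows the median was 0.069 FPKM in GW3965 and 0.026 FPKM in DMSO, a ratio of 2.64. Tlr5 lay above 84.1% of these rows in GW3965 and 89.2% in DMSO, within their 95th percentiles of 0.160 FPKM in GW3965 and 0.081 FPKM in DMSO. The remaining mouse receptors Tlr11 and Tlr12, which sense profilin of protozoa and are outside the 10 members, were in the same range. Tlr11 had 0.071 FPKM (17 reads) in GW3965 and 0.031 FPKM (10 reads) in DMSO, and Tlr12 had 0.038 FPKM in both (9 reads in GW3965, 12 in DMSO). Tlr5, Tlr11 and Tlr12 were thus at the level of genes taken as silent, and their ratios are given as values only.

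**Figure D3:**
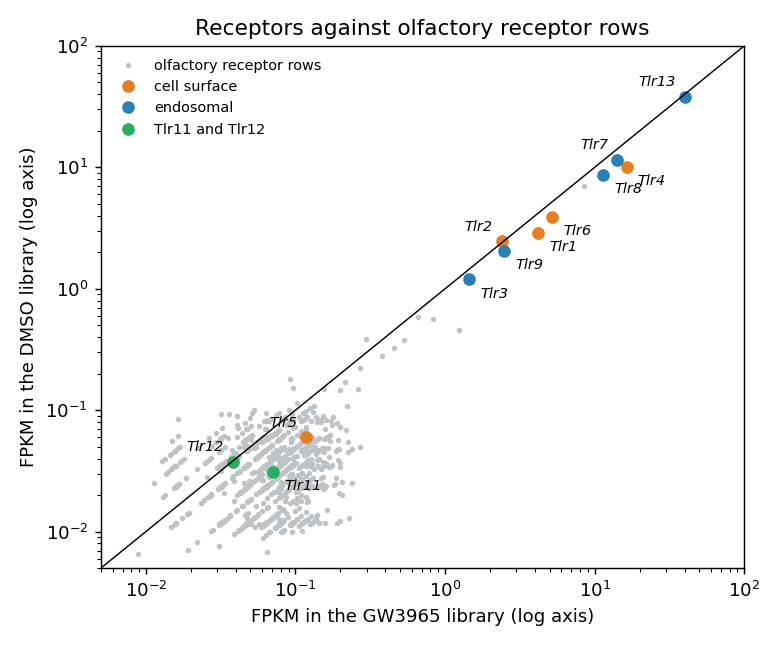
FPKM in the GW3965 library (horizontal, log axis) against the DMSO library (vertical, log axis), with 941 olfactory receptor rows above 0 in both libraries in grey, surface receptors in orange, endosomal ones in blue, Tlr11 and Tlr12 in green, and the line of equal values. Tlr5, Tlr11 and Tlr12 lie inside the grey cloud, and the 9 measured receptors lie at 1.19 FPKM or more in both libraries.

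Genes that act with the receptors at the surface all lay above the median of all rows. Of 6 listed co-receptors, 5 were measured, 0 were called in either direction, and their median centred log2 ratio was 0.22. Cd14, which hands lipopolysaccharide to Tlr4, had 44.5 FPKM in GW3965 and 32.9 FPKM in DMSO, a ratio of 1.35 (1.30 to 1.40), or 0.18 on the centred log2 scale. Ly96, the protein that sits on Tlr4 and binds the lipid, had 8.48 FPKM in GW3965 and 6.49 FPKM in DMSO and a centred log2 ratio of 0.10. Tlr4 thus showed a higher centred value than either of its helpers. Cd180, a relative of Tlr4, had 23.9 FPKM in GW3965 and 14.9 FPKM in DMSO, a ratio of 1.61 (1.56 to 1.66), or 0.41 on the centred log2 scale, close to that of Tlr4. Its partner Ly86 had 17.0 FPKM in GW3965 and 12.1 FPKM in DMSO and a centred log2 ratio of 0.22. Cd36, a lipid scavenger receptor that assists Tlr2, had 484 FPKM in GW3965 and 277 FPKM in DMSO and a centred log2 ratio of 0.56, just under the limit. Lbp, the lipopolysaccharide binding protein, was below 1 FPKM on average, at 0.845 FPKM in GW3965 and 0.212 FPKM in DMSO, a ratio of 3.98 (3.18 to 5.05) from an estimated 301 reads in GW3965 and 102 in DMSO. The olfactory receptor rows, mostly lower still, had a ratio of medians of 2.64. Lbp lay above their 95th percentiles of 0.160 FPKM in GW3965 and 0.081 FPKM in DMSO, and the part of that low-level rise in its ratio was not tested.

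Of the 11 listed genes of receptor folding, transport and cutting, some act on surface receptors too. All 11 were measured and 0 were called, and their median centred log2 ratio was 0.05. The values of 10 of them lay inside the central 90% of all measured rows, and Hsp90b1 lay above it. Unc93b1 had 90.5 FPKM in GW3965 and 72.4 FPKM in DMSO, a centred log2 ratio of 0.07. Its level was above that of each of the 10 receptors in both libraries. Hsp90b1, the chaperone that folds most Toll-like receptors, had 80.7 FPKM in GW3965 and 55.2 FPKM in DMSO, and its centred log2 ratio of 0.30 was the highest of the list. Lgmn, an endosomal protease gene, stood at 0.12, Tmed7, which helps carry Tlr4 to the surface, at 0.11, and Lrrc59, which is needed for the movement of nucleic acid sensing receptors, at 0.08. Ap3b1, of the adaptor complex that sorts receptors within the endosomal system, was the lowest at -0.09.

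The adaptors lay mostly below the median of all rows. Of 6 listed, 5 were measured, 0 were called, and 4 of the 5 had negative centred values, with a median of -0.17. Ticam1, the adaptor of Tlr3 and of Tlr4 in endosomes, had 9.31 FPKM in GW3965 and 9.67 FPKM in DMSO, a ratio of 0.96 (0.91 to 1.02), or -0.29 on the centred log2 scale. Ticam2, which links Tlr4 to Ticam1, had 5.98 FPKM in GW3965 and 6.16 FPKM in DMSO and a centred log2 ratio of -0.28. Myd88, used by all members except Tlr3, had 4.09 FPKM in GW3965 and 3.67 FPKM in DMSO and a centred log2 ratio of -0.12. Pik3ap1, an adaptor to phosphoinositide kinase, stood at -0.17, and Tirap, which brings Myd88 to Tlr2 and Tlr4, was the exception at 0.11. Among the adaptors of Tlr4, Ticam1, Ticam2 and Myd88 thus had centred values of the opposite sign to Tlr4, and Tirap had the same sign. As deposited, Ticam1 and Ticam2 had ratios of 0.96 and 0.97 (0.92 to 1.02 for Ticam2), and both intervals include no difference. Myd88, Pik3ap1 and Tirap had ratios above 1 as deposited, so the signs of Myd88 and Pik3ap1 depend on the scaling. The adaptors' median was 0.08 as deposited and 0.34 with both libraries scaled to the same sum of FPKM. The signs of Ticam1 and Ticam2, close to no difference as deposited, may therefore depend on the scaling too.

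Kinases and ubiquitin ligases, all 19 of them measured, had a median centred log2 ratio of -0.01 with 0 called. Their extremes were Irak4, the kinase first recruited by Myd88, at 3.93 FPKM in GW3965 and 4.08 FPKM in DMSO (-0.29), and Chuk, a kinase of the NF-kappaB inhibitor, at 11.5 FPKM in GW3965 and 7.74 FPKM in DMSO (0.27). Irak2 (-0.22), Syk (0.21), Map3k7 (0.13) and Ikbkb (-0.10) came next. Transcription factors of the pathway, 13 measured, had a median of -0.12 with 0 called, and as deposited that median was 0.12. The lowest were Irf1 (3.76 FPKM in GW3965, 4.04 FPKM in DMSO, centred -0.33), Rela (9.74 FPKM in GW3965, 10.2 FPKM in DMSO, centred -0.30) and Relb (-0.28). Jun (-0.25), Nfkb2 (-0.23) and Spi1, the gene of PU.1 (-0.16), followed. The other nucleic acid and cell wall sensors, 7 of 10 measured, had a median of -0.06 with 0 called, from -0.21 for Ddx58, the gene of RIG-I, to 0.20 for Aim2, a DNA sensor, and as deposited that median was 0.18. The sign of each negative list median thus depends on the scaling.

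Inhibitors and response genes held the 2 genes of the pathway that were called, both higher. Tnfaip3, a ubiquitin editing enzyme that ends NF-kappaB signalling, had 8.69 FPKM in GW3965 and 3.62 FPKM in DMSO and was the 1 of 12 measured inhibitors called, at a centred log2 ratio of 0.82. Other inhibitors lay lower, with Dusp1, a phosphatase of MAP kinases, at -0.28 and Zc3h12a, which degrades cytokine mRNA, at -0.22. Trafd1 (-0.21), Nfkbia, the inhibitor of NF-kappaB itself (0.18), and Irak3, an inactive relative of the Irak kinases (-0.15), came next. Il1a, the cytokine interleukin 1 alpha, had 24.0 FPKM in GW3965 and 7.39 FPKM in DMSO and was the 1 of 6 measured response genes called, at 1.33. The other 13 of 19 response genes were below 1 FPKM on average, among them Il6 at 0.043 FPKM in GW3965 and 0.012 FPKM in DMSO and Il1b at 0.063 FPKM in GW3965 and 0.057 FPKM in DMSO. Tnf had 1.89 FPKM in GW3965 and 1.51 FPKM in DMSO, a centred log2 ratio of -0.04, and Ccl3 had 53.9 FPKM in GW3965 and 41.3 FPKM in DMSO, one of 0.13. Ccl4 and Ccl5, chemokines like Ccl3, had centred log2 ratios of -0.07 and -0.06, with Ccl4 at 10.9 FPKM in GW3965 and 9.51 FPKM in DMSO and Ccl5 at 1.94 FPKM in GW3965 and 1.59 FPKM in DMSO. Saa3, an acute phase protein, had 70.8 FPKM in GW3965 and 47.1 FPKM in DMSO, one of 0.33. Over the 8 pathway lists, 78 of 99 genes were measured, 2 (2.56%) were called higher and 0 lower, where 1.38% of all measured rows were called higher and 0.336% lower, and their median centred log2 ratio was -0.01. A count of 2 genes is near the share of the whole table.

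**Figure D4:**
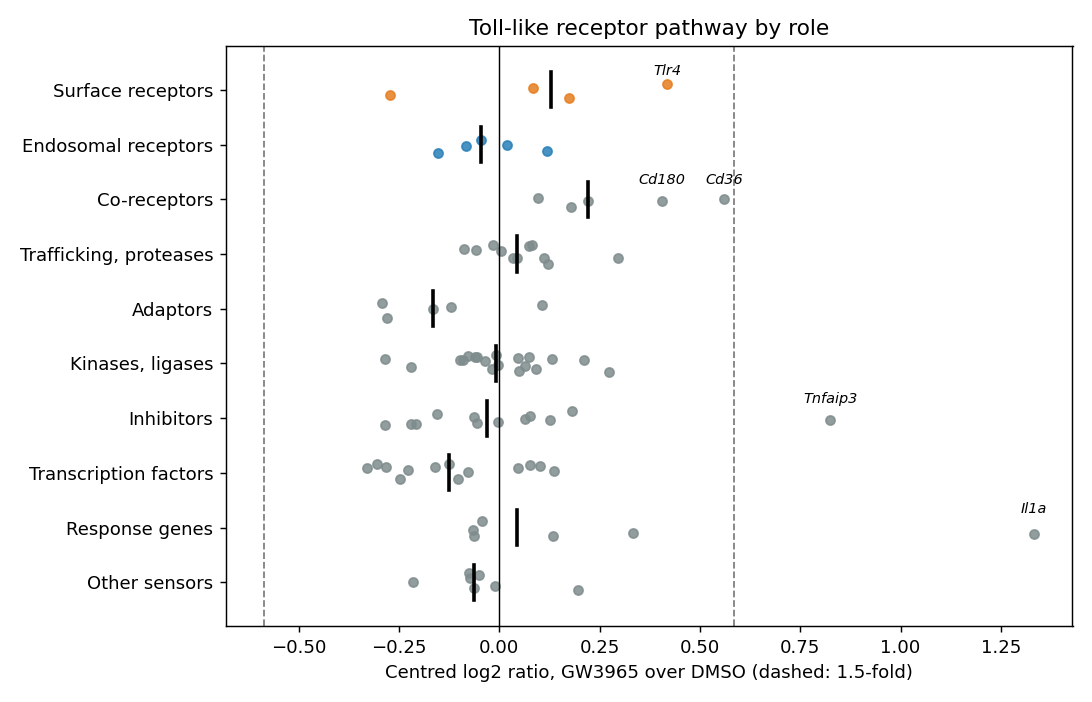
Centred log2 ratio (GW3965 over DMSO, horizontal) of the measured genes of each role in the Toll-like receptor pathway; points are genes, black bars are medians of a list, dashed lines mark 1.5-fold, and names are given beyond 0.38. Il1a at 1.33 and Tnfaip3 at 0.82 lie past the line, Cd36, Tlr4 and Cd180 lie short of it, and the adaptors and transcription factors have medians of -0.17 and -0.12.

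The label of the cells was checked against 10 macrophage markers. All 10 were measured, with Lyz2 (lysozyme) at 4822 FPKM in GW3965 and 4052 FPKM in DMSO, and their median centred log2 ratio was 0.02, from -0.26 for Csf1r to 0.69 for Mertk. Mertk, a receptor for dying cells, was the 1 of 10 called, at 13.9 FPKM in GW3965 and 6.79 FPKM in DMSO. Markers of B cells, dendritic cells, neutrophils, T and NK cells, mast cells and eosinophils each stayed below 4 FPKM. The summed FPKM of 10 B cell markers was 4.89 in GW3965 and 3.28 in DMSO, with 2 measured and Cd79a highest. That of 10 dendritic cell markers was 1.89 in GW3965 and 1.20 in DMSO with 0 measured, and that of 10 neutrophil markers was 7.64 in GW3965 and 6.63 in DMSO with 2 measured, S100a8 highest. T and NK cell markers summed to 1.52 FPKM in GW3965 and 1.01 in DMSO with 0 of 9 measured, and mast cell and eosinophil markers to 5.03 in GW3965 and 2.83 in DMSO with 1 of 10, Siglecf, measured. Mesothelial and fibroblast markers, 6 of 11 measured with Dcn highest, summed to 29.7 FPKM in GW3965 and 19.9 in DMSO, about as much as the surface receptors. Dcn alone had 11.6 FPKM in GW3965 and 6.91 FPKM in DMSO, a centred log2 ratio of 0.42. All these sums are as deposited and include the shift of most genes, which was 1.18-fold with 1 FPKM added. For markers below 1 FPKM they also include the range where olfactory receptor rows were higher in GW3965. On the centred scale 0 of the measured markers of other cells were called. The median centred log2 ratio was 0.05 for the B cell markers, -0.13 for the neutrophil markers and 0.13 for the mesothelial and fibroblast markers. None of the marker genes was at 0 in both libraries, and their part in the receptor values was not tested.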

How the data were processed

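The authors deposited 1 table of FPKM values with 1 column per library, made from total RNA with Illumina TruSeq RNA libraries per the labels' protocols. The submitters' processing notes name STAR 2.3.0, HTSeq 0.5.4p3 and the build GRCm38 (mm10). The sources used here give no annotation, strand setting or filter. From the deposited FPKM, log2 ratios were computed with 1 FPKM added, which understates the change of low genes, and centred on the median of rows with a mean of at least 1 FPKM.

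Low FPKM values move in steps of 1 read, which gave the reads: 97.0% of 29845 rows below 0.3 FPKM gave ratios of whole reads with denominators up to 60, once the depth ratio of 1.35 was allowed for. For each receptor, reads are the whole numbers in both libraries whose implied gene length, reduced by 99 bases, lay closest to the GENCODE M21 exon length. Several lengths were possible for most receptors. The absolute depth and the reduction of 99 bases rest on fewer rows than the depth ratio does. They were the values on which 83 of 6076 rows agreed, against 27 for the next best reduction. All read numbers are therefore estimates. For other genes reads are estimates from the M21 length. Ratio intervals are exact conditional (Clopper-Pearson). Intervals of single levels are exact Poisson ones, and those of ratios between members use a normal approximation on the log scale. All cover counting error only.

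The family's members and the gene lists were chosen with earlier results of these data known. RefSeq synonyms helped match symbols, and 1 of 190 list entries had no row. Genes named are all members, the other mouse receptors, up to 6 measured genes per list with the largest absolute centred log2 ratio and a fixed set of co-receptors, chaperones and adaptors. Il6, Il1b, Lbp and the macrophage and fibroblast markers were named after their values were seen. With 1 library per group no test was possible. Depth recovery and calls were tested on simulated data made with the same M21 lengths that the recovery was given. The lengths behind the deposited values differ from M21, as for Tlr6 at 4721 against 3727 bases. The simulation therefore cannot show how well the depth was recovered here. Calculations used matplotlib 3.10.9, scipy 1.17.1, pandas 2.3.3, numpy 2.4.6 and Python 3.11.15.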

Additional observations from a re-analysis of the deposited data

How the results depend on the processing

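No paired analysis was possible because there was 1 library of each kind. Against 0 members higher on the centred scale, the count was 1 (Tlr4) as deposited, 1 (Tlr4) with no filter on low values, which moved the median of all rows, and 3 (Tlr1, Tlr4 and Tlr8) with both libraries scaled to the same sum of FPKM. The count of members lower was 0 under each of the 9 settings. Of 76 values of single measured members, 71 kept their side of the fold limit and 5 passed it. Of 64 list medians, 39 moved by less than 0.1 and 25 by more, and the 5 negative ones (adaptors, kinases, inhibitors, transcription factors, other sensors) were positive as deposited, at 0.08, 0.24, 0.21, 0.12 and 0.18. Tlr4 ran from 0.38 to 0.92 and Tlr2 from -0.35 to 0.16, and Tlr13 was below 0 centred and above 0 as deposited (0.09). The surface receptors' median minus that of the endosomal ones was 0.17, and it was 0.40 at a mean of at least 5 FPKM, where Tlr4 was the only surface receptor left. Under the other 9 settings it ran from 0.13 to 0.20. Pathway genes higher numbered 2, against 4 as deposited, 20 with the same sum and 1 at 2-fold. Rows higher in the whole table numbered 164, against 264 with a pseudocount of 0.1, 337 with no filter, 87 at a mean of at least 5 FPKM, 411 as deposited, 2604 with the same sum and 80 at 2-fold. Rows lower numbered 40, against 114 with a pseudocount of 0.1, 62 with 0.5, 22 at a mean of at least 5 FPKM, 9 as deposited, 1 with the same sum and 3 at 2-fold. Apart from the changed scale, filter or limit itself, the cause was not tested. Smaller read numbers were also possible and widen the interval of the ratio for Tlr4 (3409 in GW3965 and 2810 in DMSO, 1.56 to 1.73), Tlr6 (905 in GW3965 and 927 in DMSO, 1.204 at the low end), Tlr9 (422 in GW3965 and 468 in DMSO, 1.07 to 1.39) and Tlr12. Depth limits Tlr5, Tlr11 and Tlr12, each with 44 reads or fewer per library.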
